A study of Mus musculus with 8 samples.

Results

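The 42 genes described here encode proteins that make ribosomes in the nucleolus. They were chosen by name, and their levels were followed across genotype and sample series. A probe set carrying exactly 1 gene symbol measured 41 of them, among 19937 genes measured in the same way; Noc2l, a large-subunit factor, had no such probe set. Where a gene had several, it was represented by the one of highest mean signal. By role the 41 genes were 4 subunits of RNA polymerase I, 5 abundant nucleolar proteins, 9 proteins of small nucleolar ribonucleoproteins (snoRNPs), 10 factors of the small ribosomal subunit and 13 of the large.

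Ribosome production starts with RNA polymerase I, which copies the ribosomal RNA genes into a long precursor. The snoRNPs then direct the chemical modification and trimming of that precursor, and assembly factors fold it together with ribosomal proteins into the small and large subunits. The transcription factor MYC is known to raise many genes of this pathway, and dividing lymphoid cells depend on it for growth.

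The series addressed the part that c-JUN, an AP-1 family transcription factor, plays in lymphoid leukemia caused by the kinase fusion BCR-ABL. RNA from 4 samples labelled c-jun knock out and 4 labelled wild type, all B-lymphoid mouse cells with the strain label SW129/C57BL/6J, was hybridized to Affymetrix MoGene arrays, 1 array per sample. The sample titles form a pair of series, RO and D/F, and each holds 2 knockout and 2 wild-type samples. Knockout samples 1 and 2 and wild-type samples 1 and 2 are RO, and samples 3 and 4 of each genotype are D/F. Within D/F both knockout titles begin with D and both wild-type titles with F, so the title letter and genotype cannot be told apart there, whereas the RO titles share a prefix. The labels do not give the meaning of the title series, the way c-jun was deleted, whether the cells carried BCR-ABL, or whether each sample had its own culture or animal. For that reason the p-values measure only sample-to-sample spread, which may be technical. In whole-culture RNA, fewer cells of a type and less RNA per cell cannot be told apart.

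Jun itself, the targeted gene, differed by -2.38 on the log2 scale (SE 0.32) between knockout and wild type, and the 4 knockout samples lay below the 4 wild-type samples (exact permutation test, 2-sided, p = 0.0286, the smallest that 70 assignments allow, without regard to title series). In limma's fit across all genes its adjusted p was 0.106. Of 12 B-lineage markers 11 were measured, and 9 of these had mean log2 signals well above the array medians, which ran from 6.93 to 7.42. Rag1 and Rag2, which recombine immunoglobulin genes, were at 8.66 and 7.62. Summed as a mean over each list, myeloid markers lay at 6.80 to 7.01 in knockout and 6.67 to 7.53 in wild-type samples, T and NK markers at 6.34 to 6.92 and 6.40 to 7.51, erythroid and megakaryocyte markers at 7.31 to 7.68 and 7.53 to 7.80, stromal and endothelial markers at 6.89 to 7.28 and 6.88 to 7.49, and proliferation genes at 11.91 to 12.18 and 11.78 to 12.09.

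The ribosome-biogenesis genes were above the array median in every sample. Their means over the 8 samples ran from 9.44 to 12.76, and 38 of the 41 fell among the brightest genes, the 2 highest of 10 equal bins of mean signal. Those 2 bins hold 3988 genes and serve below as genes of similar signal. The members varied little: the range over the 8 samples had a median of 0.505, against 0.654 for genes of similar signal and 0.749 for all genes, and no member spanned more than 1 log2 unit. Nop16, a large-subunit factor, had the smallest range, 0.206, and Npm1 the largest, 0.964.

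**Figure D1:**
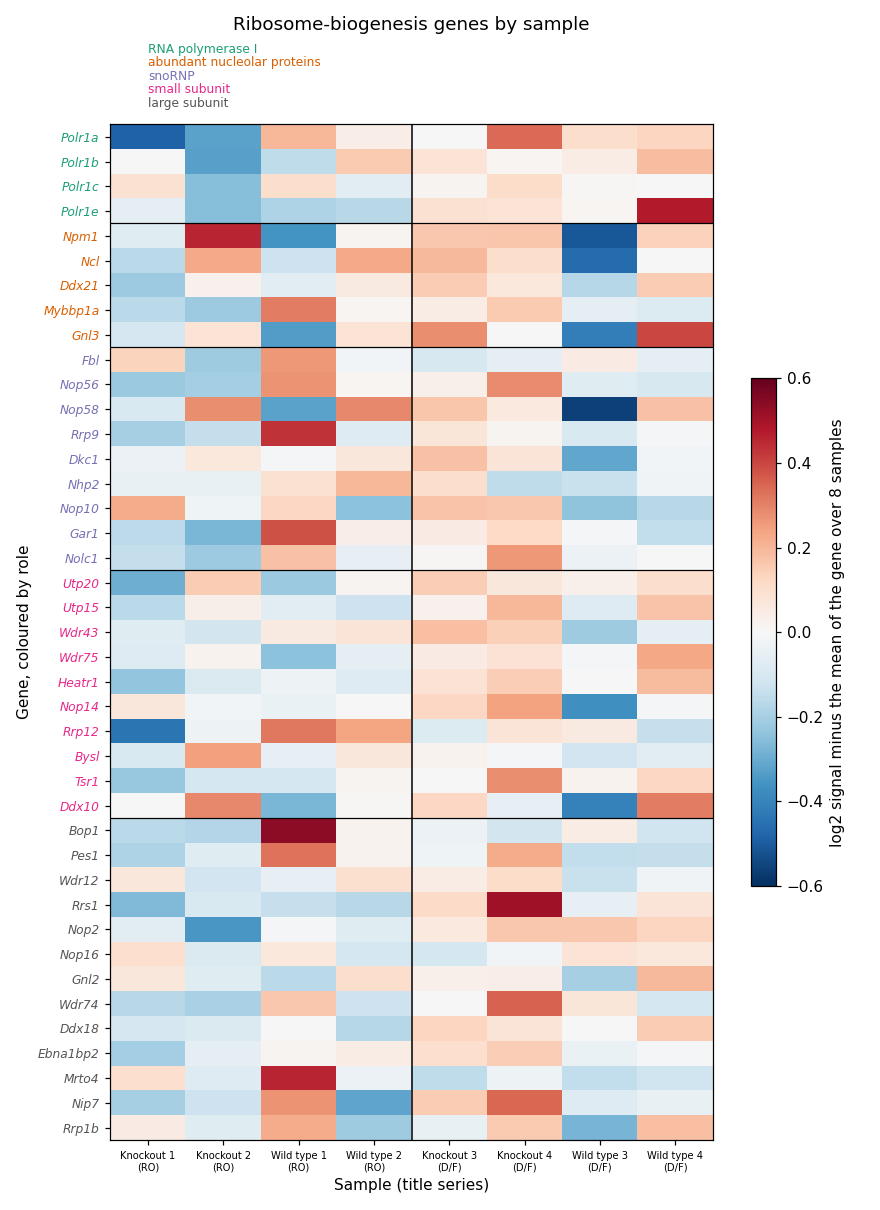
Each cell shows the log2 signal of 1 of the 41 genes in 1 sample minus the mean of that gene over the 8 samples, with genes in rows grouped by role and samples in columns. Many genes were low in knockout samples 1 and 2 and in wild-type sample 3, and high in knockout sample 4, and no gene separated all 4 knockout from all 4 wild-type samples.

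In the values as deposited, the members had no common direction between the genotypes. In knockout samples 20 of the 41 had the higher mean, against 28% of all genes and 58.2% of genes of similar signal. Their median difference, knockout minus wild type, was -0.0023 on the log2 scale, against -0.113 over all genes and 0.034 over genes of similar signal, and single members ran from -0.242 (Bop1) to 0.356 (Npm1). By limma with Benjamini-Hochberg adjustment over all genes, 0 members passed 0.05, beside 1 gene of all tested (0.00502%; Pja1, a ubiquitin ligase, and not Jun), and 0 members had an unadjusted p below 0.05, beside 2.25% of all genes. In 0 members did the 4 knockout samples all lie below the wild-type samples (1.03% of all genes) or all above them (0.266%). Centring each array on its median adds 0.153 to every knockout minus wild-type difference. Then 38 of 41 members had the higher mean in knockout, again with 0 passing the adjustment. The centred median was 0.151 for members, 0.187 for genes of similar signal and 0.040 for all genes. The same shift applies to the centred counts of role groups given below. The standard errors of the members' differences ran from 0.120 to 0.194, which sets the size of difference these samples could resolve.

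Within the title series, the members lay in opposite directions in the deposited values. In the RO samples 28 of 41 (68.3%) were lower in knockout, against 73.5% of all genes and 39.6% of genes of similar signal. The RO median difference was -0.103, against -0.249 for all genes and 0.077 for genes of similar signal. In the D/F samples 34 of 41 (82.9%) were higher in knockout, against 52.4% of all genes and 47.4% of genes of similar signal. The D/F median was 0.0966, against 0.0097 for all genes and -0.012 for genes of similar signal. Lower in RO and higher in D/F knockout were 24 members (58.5%), against 40.8% of all genes and 21.1% of genes of similar signal, and the reverse held for 3 members. Without wild-type sample 3 the count was 20 (48.8%), against 59.7% of all genes and 20.1% of genes of similar signal, with the reverse in 9. Without wild-type sample 4 it was 24, against 16.4% and 20.8%, and after quantile normalization 27 (65.9%), against 27.4% and 24.9%. With each array centred on its median it was 6 (14.6%), against 20.8% and 4.41%. The difference of the differences, D/F minus RO, had a member median of 0.21 and was above 0 in 36 of 41, against 71.6% of all genes and 40.8% of genes of similar signal. Tested gene by gene with limma's interaction term and Benjamini-Hochberg adjustment, 0 members passed (0.0301% of all genes did), and 1, Nop56, had an unadjusted p below 0.05 (5.38% of all genes).

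Other scalings gave other values. After quantile normalization the RO median was -0.180 and the D/F median 0.124, with 33 members lower in RO knockout. Centring the arrays adds 0.325 to every RO difference and -0.018 to every D/F difference. The RO median was then 0.222, only 7 members were lower in RO knockout, and the D/F median was 0.078. The array medians moved with genotype in the RO samples: 7.01 and 6.93 in knockout against 7.41 and 7.17 in wild type. The member median minus that of genes of similar signal, which centring cannot change, was -0.179 in RO and 0.109 in D/F, and -0.198 and 0.133 after quantile normalization. In RO it was -0.114 without wild-type sample 1, and in D/F it was 0.171 without knockout sample 3. Without wild-type sample 3 the D/F median was 0.041, without wild-type sample 4 it was 0.161, and without knockout sample 3 it was 0.150. Among the marker lists, the erythroid and megakaryocyte list had an RO median of -0.148 and a D/F median of 0.096 after quantile normalization. As deposited, 3 of its 7 genes had an unadjusted limma interaction p below 0.05, against 5.38% of all genes. The stromal and endothelial list was lower in RO knockout in 9 of 10 genes as deposited, against 73.5% of all genes. The same held for 9 of 10 myeloid, 9 of 9 T and NK and 6 of 7 erythroid and megakaryocyte markers. It held for 3 of 11 B-lineage markers and 2 of 9 proliferation genes. After quantile normalization the counts were 9 of 10 stromal and endothelial, 8 of 10 myeloid, 4 of 9 T and NK and 5 of 7 erythroid and megakaryocyte markers. They were 2 of 11 B-lineage markers and 2 of 9 proliferation genes, against 11242 of 19937 genes. The RO median was then -0.048 for myeloid and 0.030 for T and NK markers, against -0.037 for all genes. The part of array scaling and of these cell types in the pattern was not tested.

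**Figure D2:**
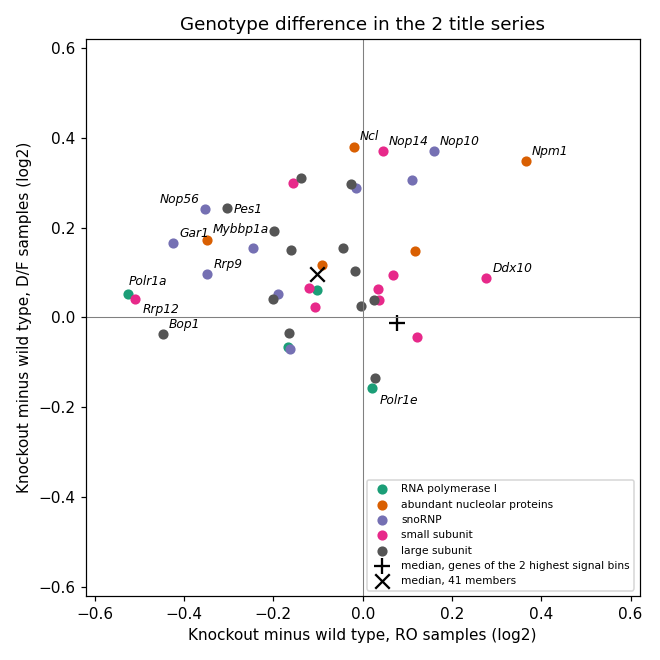
Each point is 1 of the 41 genes in the deposited values, coloured by role, with the knockout minus wild-type difference (log2) in the RO samples on the horizontal axis and in the D/F samples on the vertical axis. The median of the members lies at -0.103 and 0.0966, and that of genes in the 2 highest signal bins at 0.077 and -0.012; with arrays centred on their medians every point lies 0.325 further right.

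Sample by sample, the median deviation of the members from their own means was -0.099 and -0.085 in knockout samples 1 and 2 and -0.003 and 0.014 in wild-type samples 1 and 2. In the D/F series it was 0.060 and 0.108 in knockout samples 3 and 4, and -0.073 and -0.002 in wild-type samples 3 and 4. Knockout sample 4 held the highest value of 12 members, and knockout sample 1 and wild-type sample 3 each held the lowest value of 12. Genes of similar signal deviated the other way in knockout samples 1 and 2, by 0.039 and 0.058.

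**Figure D3:**
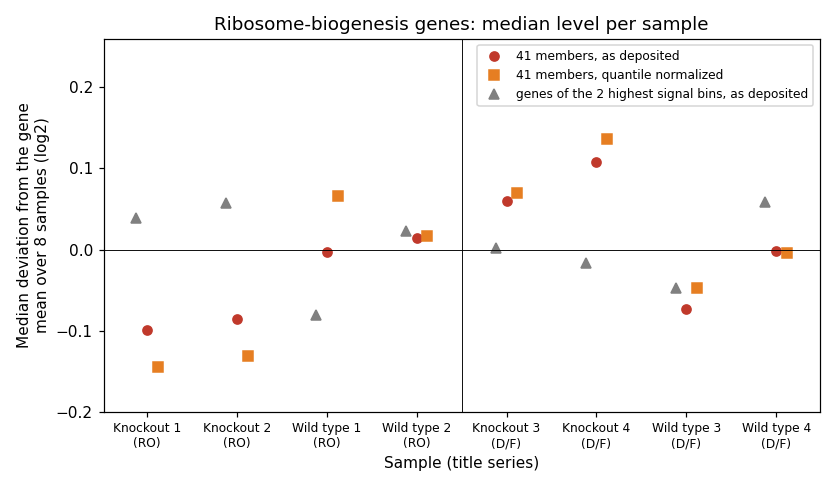
For each sample the points give the median deviation (log2) from each gene's mean over the 8 samples, for the 41 genes as deposited, the same genes after quantile normalization, and genes of the 2 highest signal bins as deposited. The deposited members sit at -0.099 and -0.085 in RO knockout samples and at 0.060 and 0.108 in D/F knockout samples, with wild-type samples between -0.073 and 0.014.

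Promoters of the members were searched for letters that known activators bind, since these genes are read as a group. RefSeq windows on GRCm38.p6, from 250 bases before to 50 after a start site, were found for 36 of the 42 genes (40 windows, of 32851 in all), and 7 motifs were looked for on both strands. The ETS-type motif CCGGAAG was in 35% of the member windows and 8.86% of all windows. The motif TCTCGCGA, known from housekeeping promoters, was in 10% against 0.995%. The E-box CACGTG, the letters that MYC with MAX recognises, was in 15% against 7.15%. A match before the start site was found in 1 of the 6 member windows with CACGTG, that of Nop2. The same held for 9 of 14 member windows with CCGGAAG and 3 of 4 with TCTCGCGA. CCAAT was in 32.5% against 37.4%. Letters bound by AP-1, TGANTCA, and its relative TGACGTCA were in 0 member windows, against 7.81% and 1.79% of all windows, and the palindrome of the factor NRF1 was in 0, against 0.971%. A match is only a description of the letters.

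Promoters of 4 members with such matches are shown as the 100 bases that end just before the start site, 5′ to 3′ on the gene's strand, because they display the motifs that were more frequent in member windows. Capitals mark CCGGAAG in Nhp2 and Heatr1, CACGTG and then CCGGAAG in Nop2, and TCTCGCGA, read on the other strand, in Tsr1. Their positions on GRCm38.p6 are chr11:51619673-51619772 (plus strand) for Nhp2, chr13:12395275-12395374 (plus) for Heatr1, chr6:125131783-125131882 (plus) for Nop2 and chr11:74897980-74898079 (plus) for Tsr1.
Nhp2: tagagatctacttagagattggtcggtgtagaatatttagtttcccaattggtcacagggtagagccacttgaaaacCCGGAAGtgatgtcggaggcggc
Heatr1: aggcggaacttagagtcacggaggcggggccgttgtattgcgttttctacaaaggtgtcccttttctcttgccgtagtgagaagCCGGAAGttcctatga
Nop2: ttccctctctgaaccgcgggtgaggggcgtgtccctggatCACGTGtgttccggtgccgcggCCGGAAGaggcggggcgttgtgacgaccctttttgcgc
Tsr1: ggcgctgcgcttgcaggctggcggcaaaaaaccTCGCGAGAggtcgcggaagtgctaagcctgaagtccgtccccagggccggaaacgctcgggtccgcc

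The 4 subunits of RNA polymerase I all had a lower mean in knockout, with a median difference of -0.093, and also after quantile normalization; 0 passed limma's adjustment or had an unadjusted p below 0.05. With arrays centred, 3 of the 4 had the higher mean. Polr1a (probe set 10539042), the largest catalytic subunit, was at 9.34 and 9.50 in the RO knockout and 10.03 and 9.87 in the RO wild-type samples, and at 9.82 and 10.17 in the D/F knockout and 9.93 and 9.96 in the D/F wild-type samples. The RO knockout samples were the lowest of the 8, and the D/F groups overlapped. Its difference was -0.24 (SE 0.17; adjusted p = 0.878, limma), with -0.52 in RO and 0.05 in D/F. Polr1b, the other large catalytic subunit, differed by -0.12 (SE 0.14), and Polr1c, a subunit shared with RNA polymerase III, by -0.02.

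Polr1e, a subunit of the initiation-competent enzyme, differed between title series rather than genotypes. It was at 9.74, 9.54, 9.61 and 9.63 in knockout samples 1 and 2 and wild-type samples 1 and 2, and at 9.89, 9.88, 9.81 and 10.27 in knockout samples 3 and 4 and wild-type samples 3 and 4. All 4 D/F samples lay above all 4 RO samples. The D/F minus RO difference was 0.33 (SE 0.15), with an unadjusted limma p of 0.0496 and an adjusted p of 1.

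Of the 5 abundant nucleolar proteins 4 had the higher mean in knockout, with a median difference of 0.13; with arrays centred all 5 did. Npm1 (probe set 10385043), nucleophosmin, a histone and ribosome chaperone, was at 12.16 and 12.69 in the RO knockout and 11.88 and 12.25 in the RO wild-type samples, and at 12.40 in both D/F knockout and 11.73 and 12.38 in the D/F wild-type samples. Wild-type samples 1 and 3 were the lowest and knockout sample 2 the highest; the groups overlapped through wild-type samples 2 and 4. The difference of 0.36 (SE 0.17), 1.28-fold on the linear scale, had the smallest p of any member, 0.062 by limma before adjustment and 0.878 after. It ran from 0.23 without wild-type sample 3 to 0.49 without wild-type sample 4.

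Ncl (probe set 10356312), nucleolin, which binds precursor rRNA, was at 12.60 and 12.99 in the RO knockout and 12.64 and 12.99 in the RO wild-type samples, and at 12.95 and 12.86 against 12.30 and 12.76 in D/F. The RO groups matched closely, and both D/F knockout samples lay above both D/F wild-type samples, by 0.38 on average. Gnl3, nucleostemin, a nucleolar GTPase, was at 11.07 and 11.25 against 10.84 and 11.26 in RO and at 11.45 and 11.17 against 10.76 and 11.58 in D/F. The groups overlapped in both series, with wild-type samples 1 and 3 the lowest. The RNA helicase Ddx21, which acts in rRNA transcription and processing, differed by 0.01 (SE 0.13).

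Wild-type samples 1 and 3 were both below the gene's own mean in 14 of the 41 members (34.1%), among them Npm1, Gnl3, Nop58 and Ddx10. That share was near the 35.6% of genes of similar signal, against 14.2% of all genes. These arrays had the highest medians, 7.41 and 7.42. The part of the array medians in these values was not tested.

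Among the 9 snoRNP proteins the difference of the differences was above 0 for all, against 71.6% of all genes and 40.8% of genes of similar signal. Its median was 0.30, against 0.256 over all genes. Of these 9 genes 7 (77.8%) were lower in RO knockout, against 73.5% of all genes and 39.6% of genes of similar signal. In D/F knockout 8 (88.9%) were higher, against 52.4% and 47.4%. The RO and D/F medians were -0.189 and 0.165, against -0.249 and 0.0097 over all genes. Over both series the snoRNP median was -0.055. With arrays centred the RO median turned to 0.136 and all 9 had the higher mean in knockout. Nop10 (probe set 10474541), a small protein of the H/ACA particles that turn uridine into pseudouridine, was higher in knockout in both series, as was Nop58. It was at 12.20 and 11.95 in RO knockout against 12.10 and 11.73 in RO wild type, and at 12.15 and 12.14 against 11.74 and 11.82 in D/F. The D/F groups did not overlap, and the difference was 0.26 (SE 0.13; adjusted p = 0.878, limma).

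Among the other H/ACA proteins, Dkc1 (dyskerin, the pseudouridine synthase) differed by -0.01 in RO and 0.29 in D/F. Nhp2 differed by -0.19 and 0.05, and Gar1 by -0.42 and 0.17. Among proteins of the C/D particles, which add methyl groups, Nop58 was at 10.96 and 11.33 against 10.73 and 11.34 in RO, and at 11.22 and 11.11 against 10.49 and 11.22 in D/F. Its overall difference of 0.21 (SE 0.19) lay within the wild-type spread, and wild-type sample 3 was the lowest. Fbl, fibrillarin, the methyltransferase, differed by -0.16 in RO and -0.07 in D/F, and by -0.22 and 0.23 on its other probe set.

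Nop56 (probe set 10476093), the partner of Nop58 in the same particles, had the largest difference of the genotype differences, D/F minus RO, among the members. It was at 12.20 and 12.22 in the RO knockout and 12.69 and 12.43 in the RO wild-type samples, and at 12.45 and 12.70 in the D/F knockout and 12.35 and 12.32 in the D/F wild-type samples. Both RO knockout samples were below both RO wild-type samples, and both D/F knockout samples above both D/F wild-type samples. Knockout minus wild type was -0.35 in RO and 0.24 in D/F. The difference of these differences was 0.59 (SE 0.23, adjusted p = 0.716, limma interaction term).

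The same arrangement, no overlap in either series and opposite order, held for 8 of the 41 members (19.5%), against 3.67% of all genes and 3.71% of genes of similar signal. The reverse arrangement held for 0 members and 2.14% of all genes. The arrangement of the 8 also held outside the members. It held for 9 of 21 small-subunit ribosomal proteins (42.9%), 13 of 33 large-subunit ribosomal proteins (39.4%) and 6 of 11 chaperones and translation factors (54.5%). It also held for 2 of 12 exosome subunits (16.7%) and 2 of 43 other large-subunit factors (4.65%). The count was 0 of 40 other small-subunit factors and 0 of 15 further genes of rRNA transcription. These shares were not tested against that of the members. Besides Nop56 the 8 were Gar1; Rrp9 of the U3 particle; Nolc1, a chaperone of snoRNPs; Mybbp1a, a nucleolar MYB-binding protein; Wdr43, a small-subunit factor; and Pes1 and Ebna1bp2, factors of the large subunit. They were singled out after their values were seen, apart from Nolc1, which the rule for named genes had taken.

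Taking the members of that set in turn, Gar1 was at 10.76 and 10.64 in RO knockout against 11.30 and 10.95 in RO wild type, and at 10.96 and 11.04 against 10.90 and 10.77 in D/F. Pes1, which joins Bop1 and Wdr12 in the PeBoW complex of large-subunit maturation, was at 10.60 and 10.72 against 11.12 and 10.81 in RO, and at 10.76 and 11.01 against 10.64 and 10.65 in D/F. Mybbp1a was at 11.82 and 11.77 against 12.29 and 11.996 in RO, and at 12.03 and 12.14 against 11.92 and 11.90 in D/F. In these 3 genes the highest value was that of wild-type sample 1, and in D/F the knockout samples lay just above wild type.

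In the remaining members of the set, the genotype difference in D/F minus that in RO was 0.45 for Wdr43 and 0.44 for Rrp9. It was 0.40 for Nolc1 and 0.31 for Ebna1bp2. None of the 8 passed the adjustment. On quantile-normalized values the arrangement held for 9 members (22%, against 3.46% of genes of similar signal): Nop56 left the set and Dkc1 and Wdr12 joined. With arrays centred on their medians it held for 0, against 0.125% of genes of similar signal and 2.25% of all genes.

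**Figure D4:**
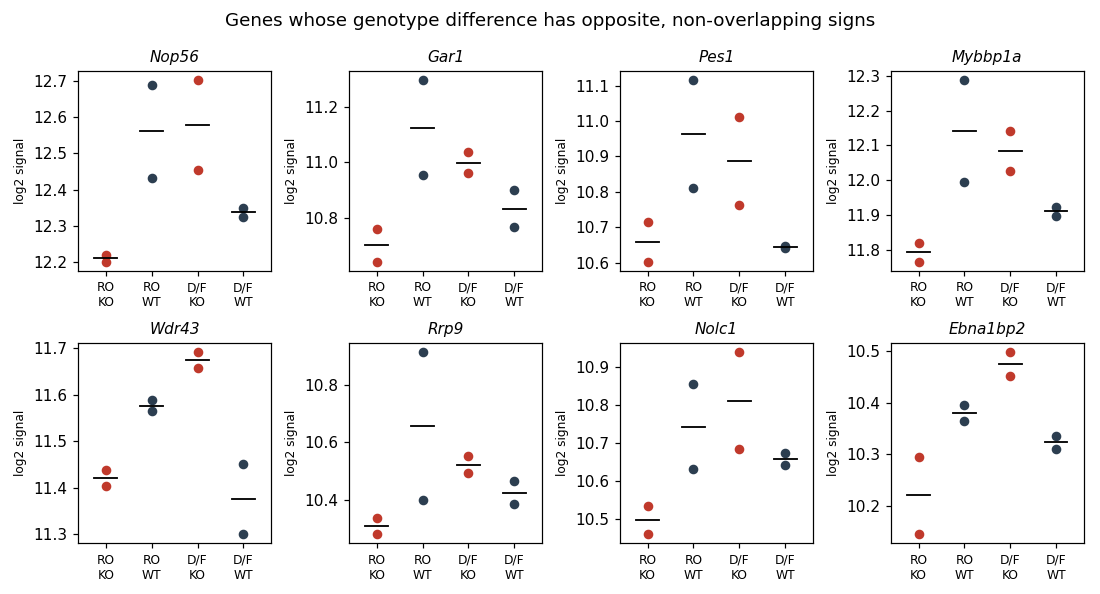
Log2 signal of the 8 genes whose RO knockout samples lie below and whose D/F knockout samples lie above the wild-type samples of their series. Points are single samples (red knockout, dark wild type), and lines are means of 2; vertical axes differ between panels and do not start at 0. In Nop56 the RO knockout points are at 12.20 and 12.22, and the D/F knockout points at 12.45 and 12.70.

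Taking each series alone, both knockout samples lay below both wild-type samples in RO in 14 members (34.1%), against 45.5% of all genes and 12.9% of genes of similar signal, and above in 0 (8.71% of all genes). In D/F both knockout samples lay above both wild-type samples in 18 members (43.9%), against 9.57% of all genes and 15.3% of genes of similar signal. They lay below in 1, Nop16 (10.5% of all genes). With arrays centred on their medians, the 14 RO members became 2 and the 18 D/F members became 1; after quantile normalization they became 19 and 16.

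The 10 small-subunit factors were mixed: 7 had the higher mean in knockout, and the median difference was 0.044; with arrays centred 9 were higher. Nop14 (probe set 10529425), a factor of the early small-subunit precursor, was at 9.83 and 9.74 against 9.72 and 9.76 in RO, and at 9.89 and 10.004 against 9.39 and 9.75 in D/F. The RO groups overlapped and wild-type sample 3 was the lowest; the difference was 0.21 (SE 0.15), and 0.10 without that sample. Ddx10, an RNA helicase, was at 9.91 and 10.20 against 9.64 and 9.92 in RO, and at 10.04 and 9.86 against 9.51 and 10.22 in D/F, with overlap in both.

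Rrp12 (probe set 10467653), which accompanies subunit precursors out of the nucleus, was at 9.001 and 9.41 in RO knockout against 9.75 and 9.68 in RO wild type, and at 9.35 and 9.52 against 9.49 and 9.30 in D/F. The RO groups did not overlap and the D/F groups did. The difference was -0.23 (SE 0.17; adjusted p = 0.878, limma), and -0.10 without knockout sample 1, the lowest. Heatr1, which takes part in rRNA transcription and small-subunit processing, was at 10.32, 10.47, 10.52 and 10.48 in the RO samples and 10.64, 10.70, 10.56 and 10.75 in the D/F samples, in the order knockout, knockout, wild type, wild type. All D/F values were above all RO values, by 0.22 on average (SE 0.13). Tsr1, a late small-subunit factor, differed between the series by 0.21 (SE 0.14).

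Of the 13 large-subunit factors 6 had the higher mean in knockout, with a median difference of -0.0023; with arrays centred 12 were higher. Bop1 (probe set 10429908), a PeBoW scaffold protein, was at 11.45 and 11.43 in RO knockout against 12.14 and 11.63 in RO wild type, and at 11.57 and 11.50 against 11.65 and 11.49 in D/F. Wild-type sample 1 stood above the other 7. The difference was -0.24 (SE 0.15; adjusted p = 0.878, limma), and -0.10 without that sample. The remaining PeBoW member, Wdr12, differed by 0.05, with -0.05 in RO and 0.15 in D/F. Its other probe set, of lower signal, gave the values 0.22 in RO and -0.0016 in D/F. Which of these probe sets lies at the gene itself was not checked.

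Rrs1 (probe set 10344723), which brings the 5S particle into the large subunit, was at 9.36, 9.54, 9.49 and 9.46 in the RO samples and 9.74, 10.14, 9.58 and 9.71 in the D/F samples, in the same order. All D/F values lay above all RO values, and knockout sample 4 was the highest. Between genotypes the difference was 0.14 (SE 0.15), and between series 0.33 (SE 0.15; adjusted p = 1, limma). Nop2, an rRNA methyltransferase, was at 10.68, 10.40, 10.74 and 10.68 in RO and 10.81, 10.91, 10.91 and 10.88 in D/F, a difference of 0.25 (SE 0.13).

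Between the title series, 26 of 41 members had the higher mean in D/F, against 63.8% of all genes and 48.5% of genes of similar signal. The median difference was 0.030, against 0.051 for all genes and -0.0067 for genes of similar signal. With arrays centred on their medians it was -0.050, against -0.029 and -0.086. By limma with Benjamini-Hochberg adjustment 0 members passed, beside 0.0201% of all genes. An unadjusted p below 0.05 was found for 1 member, Polr1e, beside 3.12% of all genes. In 5 members, Polr1e, Heatr1, Rrs1, Nop2 and Ddx18, a large-subunit helicase, all 4 D/F samples lay above all 4 RO samples, against 0.978% of all genes, and in 0 members below (0.983%). The largest difference toward RO was that of Mrto4, a stalk-assembly factor, at -0.22.

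Other genes of the pathway gave values close to those of the members between genotypes, and 0 genes of any list passed limma's adjustment, with Rplp2 alone at an unadjusted p below 0.05. Of 40 other small-subunit factors 21 were higher and 19 lower in knockout, with a median of 0.036; Dimt1, an rRNA methyltransferase, differed by 0.40 (SE 0.19) and Tbl3 by -0.23 (SE 0.13), with all 4 knockout samples below all wild-type samples. Of 43 other large-subunit factors 20 were higher, with a median of -0.015. Grouped in that list were Nol7 at 0.29, whose subunit was not checked here, and Nifk, which binds the Ki-67 protein, at 0.21. Of 12 exosome subunits, which trim rRNA ends, 6 were higher; Exosc9 differed by 0.26 and Exosc5 by -0.26. Of 15 further genes of rRNA transcription 6 were higher, with Polr2e and Polr2k, subunits shared among polymerases, at -0.30 and -0.27.

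Within the title series, the RO and D/F medians were 0.074 and 0.043 for the other small-subunit factors, -0.020 and 0.052 for the other large-subunit factors, 0.053 and 0.054 for the exosome and 0.015 and -0.063 for rRNA transcription. Whether these lists differed from the members was not tested.

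The ribosomal proteins, the building blocks of the subunits, were lower in RO and higher in D/F knockout by their medians in the deposited values. Of 21 small-subunit proteins the RO and D/F medians were -0.223 and 0.306, and of 33 large-subunit proteins -0.133 and 0.265. An unadjusted interaction p below 0.05 was found for 13 (61.9%) and 12 (36.4%) of them, against 5.38% of all genes and 7.6% of genes of similar signal, and 0 passed limma's adjustment. After quantile normalization the medians shrank to -0.067 and 0.096 for the small and -0.054 and 0.066 for the large subunit, while those of the members were -0.180 and 0.124. With arrays centred the RO medians turned to 0.102 and 0.192. Between genotypes Rps21 differed by 0.23, Rps9 by 0.25, Rpl7a by 0.33 and Rplp2, an acidic stalk protein, by -0.80 (SE 0.27; adjusted p = 0.878, limma). Probe sets of ribosomal proteins can share sequence with processed pseudogenes, so these values are uncertain.

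Chaperones and translation factors, 11 genes, had RO and D/F medians of -0.138 and 0.227, with 5 of 11 higher in knockout overall. Eif4e, which binds the mRNA cap, differed by 0.32 (SE 0.22) and Hspd1, a mitochondrial chaperone, by 0.20 (SE 0.16).

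Myc itself was at 12.76 and 12.30 in the RO knockout and 13.40 and 12.63 in the RO wild-type samples, and at 12.72 and 13.10 in the D/F knockout and 12.96 and 12.57 in the D/F wild-type samples. The groups overlapped in both series. Its difference was -0.17 (SE 0.21), with -0.48 in RO and 0.14 in D/F. It was 0.04 without wild-type sample 1, -0.02 without knockout sample 2 and -0.02 with arrays centred. Mycn was at 10.61 and 10.80 against 11.07 and 11.23 in RO, and at 10.70 and 10.88 against 10.24 and 11.30 in D/F. The RO groups did not overlap, and the overall difference was -0.21 (SE 0.21; adjusted p = 0.878, limma). No relation between Myc and the members was tested.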

How the data were processed

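Total RNA of 8 samples was extracted with Trizol and a Qiagen column, reverse transcribed from random hexamers and biotin-labelled with Affymetrix whole-transcript reagents, per the labels' protocols. The authors deposited log2 values for 34760 probe sets; the tool was MAS5, per the submitters' processing notes, for which the sources used here give no version. The scale was inferred from the numbers: back on the linear scale, each array had a mean of 500 after trimming 2%. That fixes the mean and not the median, which differed between arrays. This array type carries no mismatch probes, on which MAS5 relies, and the summarization behind the values is therefore uncertain. No detection calls were used.

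Platform annotation gave 21640 probe sets 1 symbol, 1321 several and 11799 none; the last 2 kinds were left out. Entrez identifiers of 21553 were found in a gene table of GRCm38.p6, and 0 symbols changed. The values were used as deposited in limma 3.58.1 under R 4.3.3 (lmFit and trended eBayes); genotype and title series were the terms, with 5 residual degrees of freedom (4 with the interaction, 2 within a series). P-values were adjusted by Benjamini-Hochberg over 19937 genes at 0.05, and each SE is that of the moderated coefficient. The fit was tested on simulated data with independent noise for each gene. The simulation held no shift between arrays and no title-series effect, so it does not cover array scaling. Quantile normalization and centring used all probe sets. Tables and promoter searches used Python 3.11.15 and pandas 2.3.3, with promoters from RefSeq.

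The members, the gene lists and the rule for named genes were chosen with earlier results of these data known. The rule took, in each role group, the 3 members of smallest p for genotype and the 2 for title series; in each other list the 2 genes of smallest p for genotype; the members of highest and lowest mean signal; and Jun, Myc and Mycn. Alternatives were other scalings, a fit without the other term, filters on dim genes, averaged probe sets, other priors, array weights, each series alone, and each sample left out.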

Additional observations from a re-analysis of the deposited data

Results flagged for a closer look

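Within a genotype, a sample stood apart from the other 3 in 4 of the 74 groups of named genes tested by Dixon's ratio of gap to range. Chance gives about 1 in 20. Nop14 was at 9.39 in wild-type sample 3, Polr2e at 10.09 in knockout sample 1, Jun at 6.46 in knockout sample 2 and Jun at 10.55 in wild-type sample 3.

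In 8 members every knockout sample lay on one side of wild type in RO and on the opposite side in D/F. Their genotype differences in D/F minus those in RO (log2) were 0.52 for Mybbp1a, 0.59 for Nop56, 0.44 for Rrp9 and 0.59 for Gar1. The values were 0.40 for Nolc1, 0.45 for Wdr43, 0.55 for Pes1 and 0.31 for Ebna1bp2. Limma's interaction term gave adjusted p-values of at least 0.716 for all 8.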

How the results depend on the processing

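The count of members called stayed at 0 for genotype, interaction and title series under every alternative run. The member median, knockout minus wild type, was 0.151 with arrays centred on their medians, -0.103 in RO samples alone and 0.0966 in D/F samples alone, and ran from -0.041 to 0.039 with 1 sample left out. The median D/F minus RO was -0.050 after centring and ran from 0.00094 to 0.111 with 1 sample left out, the highest without wild-type samples 3 (0.111) and 1 (0.106). The RO median, whose alternatives were chosen after seeing the data, was 0.222 after centring. For Jun, RO samples alone gave -2.10 and D/F samples alone -2.67, with an exact permutation p of 0.333, the smallest that 6 assignments allow; leaving out 1 sample gave -1.95 to -2.54. Of 36 named genes other than Jun, 6 changed sign with 1 sample left out, 1 after quantile normalization and 7 after centring. Genes of all kinds with an unadjusted genotype p below 0.05 numbered 449, 4863 without wild-type sample 4, 3203 with array weights, and 257 without knockout sample 2. The pseudocount foreseen for linear values was not run, since the values are log2. No paired analysis was possible because the labels carry no replicate numbers. The number of arrays, 4 per genotype, limits precision.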

Other observations

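A further probe set measured 4 of the members. For Fbl it gave 0.01, with -0.22 in RO and 0.23 in D/F; for Mrto4 -0.09, with -0.43 and 0.25; for Ddx18 -0.03, with -0.19 and 0.13; and for Wdr12 0.11, with 0.22 and -0.0016. The sign of the difference over both series matched that of the probe set used for the member in 2 of the 4. The brighter probe set had been used, and which one lies at the gene itself was not checked.

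Small nucleolar RNAs lie inside 6 of the members, 11 in all, and 4 had a probe set. In Ncl, Snord82 differed by 0.34 (SE 0.20) between knockout and wild type and Snora75 by -0.01 (SE 0.25). Snord57 in Nop56 differed by 0.08 (SE 0.21) and Snord53 in Wdr43 by -0.19 (SE 0.20), and none passed limma's adjustment.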
